A study of Mus musculus with 6 samples.

Results

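The genes described here are 8 genes of naive B cells and of the lymphoid follicles that hold them: Cr2, Cd79a, Cd79b, Ms4a1, Ighd, Fcer2a, Pax5 and Fcmr. They were taken by name from a table of 32219 mouse genes, and they were chosen by their values in these 6 libraries, so those values are a description and support nothing by themselves. The series holds 6 RNA-seq libraries of intestine, with 3 in the wild-type group (WT) and 3 in the knockout group (KO), and its title concerns the receptor GPR41 and the helicase DHX9 in neurons of the gut wall. The labels name a cell mixture of epithelium, immune cells and enteric neurons, and the design text names the whole duodenum. The sources used here do not name the gene knocked out or the cells in which it was lost, nor the strain, age or sex of the animals. Nothing in the labels says that the libraries came from separate animals, so the spread between libraries may be technical in part.

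Values are on the scale log2(abundance + 1), a reading of the deposited log values; base 2 is assumed. The table holds no counts, so depth is unknown, and 22061 to 22768 genes were above 0 in the 5 libraries other than KO 1. KO 1 lists 0 for every gene with a mean of 1 or more on chromosomes 2 to 9, X and M, and for 61.2% of such genes on chromosome 19, Ms4a1 among them. Its zeros there were treated as missing, and its values elsewhere were divided by 2.12 on the linear scale (rescaled). KO 1 also stood apart in gut position: Gata4, a factor of the proximal small intestine, was at 5.19 after rescaling against 0.43 to 0.63 in the other 5 libraries, and Fabp6, the ileal bile acid binding protein, at 3.91 against 8.16 to 8.76. These 5 libraries also expressed Slc10a2, the ileal bile acid transporter, at 5.98 to 6.76, so the labelled duodenum goes against their position genes. The comparison of KO with WT therefore used WT 1, WT 2, WT 3, KO 2 and KO 3, and KO 1 is given beside it for the 4 members it covers.

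As background, a naive B cell carries IgM and IgD on its surface as its antigen receptor and circulates through lymphoid follicles, where follicular dendritic cells make the chemokine CXCL13 that draws B cells in. In the gut wall such follicles form Peyer's patches, which are largest in the ileum, and smaller isolated lymphoid follicles. Both are scattered along the intestine, whereas plasma cells that secrete IgA lie throughout the lamina propria.

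Promoters of the members were read because the genes, on different chromosomes or far apart, had their high and low values in the same libraries. Whether promoters have a part in that pattern was not tested. Those of 3 members are printed. RefSeq windows on GRCm38.p6, from 250 bases before to 50 bases after a start site, were found for 5 of the 8 members: Cr2, Cd79a, Fcer2a, Pax5 and Fcmr. Each is printed 5′ to 3′ on the strand of the gene, and capitals mark matches to an E-box (CAGGTG, bound by E proteins such as E2A) or an ETS core (GGAAGT, bound by factors such as PU.1), on either strand. The window of Cd79a is chr7:24897247-24897546 (plus strand), that of Cr2 is chr1:195176670-195176969 (minus strand) and that of Fcmr is chr1:130865527-130865826 (plus strand).
Cd79a: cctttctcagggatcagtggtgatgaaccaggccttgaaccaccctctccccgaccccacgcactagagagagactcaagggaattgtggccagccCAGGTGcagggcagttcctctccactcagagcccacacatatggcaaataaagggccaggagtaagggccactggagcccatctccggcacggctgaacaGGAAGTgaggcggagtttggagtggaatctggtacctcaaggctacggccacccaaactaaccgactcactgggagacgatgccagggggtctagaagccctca
Cr2: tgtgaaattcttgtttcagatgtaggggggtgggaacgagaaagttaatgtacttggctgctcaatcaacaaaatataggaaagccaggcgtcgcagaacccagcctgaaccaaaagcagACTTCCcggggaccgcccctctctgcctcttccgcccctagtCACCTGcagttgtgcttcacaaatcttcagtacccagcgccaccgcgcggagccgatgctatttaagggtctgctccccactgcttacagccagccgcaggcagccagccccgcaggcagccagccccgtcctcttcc
Fcmr: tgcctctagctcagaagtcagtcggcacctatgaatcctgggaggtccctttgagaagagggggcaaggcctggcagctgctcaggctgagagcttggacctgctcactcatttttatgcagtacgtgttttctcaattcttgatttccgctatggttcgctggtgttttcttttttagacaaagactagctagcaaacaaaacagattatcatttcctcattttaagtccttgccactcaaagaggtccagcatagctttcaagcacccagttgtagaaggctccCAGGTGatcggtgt
With the start site as position 0, the E-box began at position -154 in Cd79a, -88 in Cr2 and 36 in Fcmr. The ETS core began at position -54 in Cd79a and -130 in Cr2, and Fcmr had none. Over 32851 windows of 300 bases in the table, 20.2% held this E-box and 23.8% this ETS core. The octamer ATGCAAAT, found in 1.74% of windows, and the paired half-site CCCNNGGG of the factor EBF1, found in 13.7%, had no match in the 7 windows of these 5 genes. The Pax5 window matched none of the 4 motifs. Matches on both strands were counted, none of the printed matches overlap, and a match describes letters, not a bound site.

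Cd79a and Cd79b encode the signalling chains of the B cell antigen receptor. Cd79a (chromosome 7, 24897381 to 24902197, plus strand, GENCODE vM21 on GRCm38) stood at 0.59, 3.10 and 0.31 in WT 1, WT 2 and WT 3, whereas KO 2 was at 4.03 and KO 3 at 1.25. Cd79b (chromosome 11, 106311341 to 106314762, minus strand) stood at 1.37, 3.24 and 0.93 in WT, whereas KO 2 was at 4.17 and KO 3 at 1.41. In both genes KO 2 was highest and WT 2 next, so the KO and WT values overlapped, and the low libraries were found in both groups. Cd79b differed by 0.04 between KO 3 and WT 1. KO 1 stood at 1.62 for Cd79b as deposited and at 0.98 after rescaling, beside WT 3.

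Ighd encodes the constant part of the IgD heavy chain, which marks mature naive B cells (chromosome 12, 113406604 to 113416324, minus strand). It had the widest range of the 8 genes: 0.67, 4.57 and 0.43 in WT, with KO 2 at 5.43 and KO 3 at 2.67. KO 3 lay between the high pair of libraries and the low pair, 2.24 above WT 3 and 2.0 above WT 1. KO 1 was with the low pair, at 0.86 as deposited and 0.47 after rescaling.

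Pax5, the transcription factor that commits cells to the B lineage (chromosome 4, 44524757 to 44710487, minus strand), stood at 0.10, 2.27 and 0.19 in WT, with KO 2 at 2.91 and KO 3 at 0.75. Its exons overlap those of 5730488B01Rik and Gm12462 on the opposite strand, and as the strand setting of the counting is not given, reads of these genes cannot be told apart from its own. Ms4a1 encodes CD20, a membrane protein of B cells (chromosome 19, 11249675 to 11266241, minus strand), and stood at 0.38, 2.79 and 0.52 in WT, with KO 2 at 3.61 and KO 3 at 1.28. For both genes the libraries fell into the same sequence, KO 2, WT 2, KO 3 and then the low WT libraries.

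Cr2 encodes the complement receptors CD21 and CD35, carried by mature B cells and by follicular dendritic cells (chromosome 1, 195136811 to 195176716, minus strand). It stood at 0.46, 2.29 and 0.37 in WT, with KO 2 at 2.80, KO 3 at 1.21 and KO 1 at 0.29 after rescaling (0.56 as deposited). Its range over the 5 libraries, 2.43, was the smallest of the 8. Fcer2a encodes CD23, the low-affinity IgE receptor of follicular B cells (chromosome 8, 3681737 to 3694175, minus strand), and stood at 0.52, 2.75 and 0.40 in WT, with KO 2 at 3.39 and KO 3 at 0.92. Fcmr, the receptor for the Fc part of IgM (chromosome 1, 130865669 to 130880791, plus strand), was listed at 0 in WT 1 and in KO 1, which covers its chromosome, and stood at 2.44 in WT 2, 0.21 in WT 3, 3.28 in KO 2 and 0.79 in KO 3. All 3 receptors were again highest in KO 2 and WT 2.

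**Figure D1:**
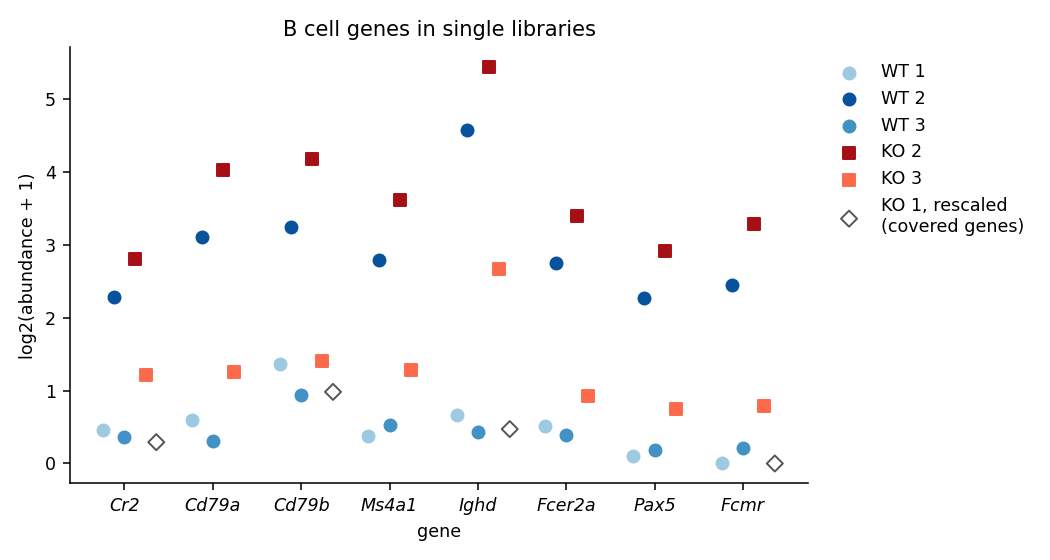
The plot shows the log2(abundance + 1) value of each of the 8 genes (x axis) in single libraries, with circles for WT, squares for KO 2 and KO 3 and open diamonds for rescaled KO 1 where it has values. KO 2 and WT 2 are the highest points for every gene and the WT 1, WT 3 and KO 1 points lie at 1.37 or below.

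The same sequence of libraries, KO 2 above WT 2 above KO 3 above both WT 1 and WT 3, held in 8 of 8 members and in 3.58% of the 22047 genes kept (above 0 in at least 3 of the 5 libraries). As the members were proposed from these values, that count describes the choice. The mean over the 8 genes was 3.70 in KO 2, 2.93 in WT 2, 1.29 in KO 3, 0.51 in WT 1 and 0.42 in WT 3. Over the 4 members that KO 1 covers, the mean was 0.44 in KO 1 after rescaling, against 0.62 in WT 1, 0.49 in WT 3 and 1.52 in KO 3. In whole tissue, fewer B cells and less RNA per B cell cannot be told apart. All 8 genes were at least 1 log2 unit above the mean of the other 4 libraries in WT 2, where 0.286% of all genes kept were, and in KO 2, where 0.839% were. All 8 were at least 1 log2 unit below that mean in WT 1 (background 0.245%) and in WT 3 (0.544%), and in KO 3 this held for 1 member, Cd79b (0.667%). With 1 library on a side, these are not tests.

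The members scaled alike between the high libraries but less so in the low ones. On the linear scale, KO 2 was above WT 2 by a factor of 1.53 for Cr2, the smallest, to 2.02 for Cd79a, the largest. WT 2 thus held 49.5% to 65.2% of the KO 2 level. KO 3 held 8.40% (Fcmr) to 12.7% of the KO 2 level for 7 members, and 22.0% for Cr2. In WT 1 the share ran from 1.16% for Pax5 to 9.30% for Cd79b, apart from Fcmr, listed at 0, and in WT 3 from 0.833% for Ighd to 5.37% for Cd79b. Cr2 and Cd79b therefore kept more of their highest level in WT 1 and WT 3 than Ighd and Pax5 did. Read as natural logs, the KO 2 to WT 2 factors would be 1.74 to 2.60 and the KO 3 shares 4.51% to 15.2%.

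Ptprc, which encodes CD45 and is carried by all leukocytes, stood at 4.0, 5.03 and 3.52 in WT, with KO 2 at 5.52, KO 3 at 3.63 and KO 1 at 3.61 after rescaling. The summed linear level of the 8 genes per unit of Ptprc was 0.257 in WT 1, 1.98 in WT 2, 0.272 in WT 3, 2.58 in KO 2 and 1.19 in KO 3. The high and low libraries were thus also apart relative to all leukocytes, and KO 3 lay between them.

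KO was compared with WT by limma over all 22047 genes kept, with Benjamini-Hochberg adjustment. Of the 8 members, 0 passed an adjusted p of 0.05, where 1 gene in all (0.00454%) did, the predicted gene Gm49380, and 491 genes had an unadjusted p under 0.05, none of them a member. All 8 folds were positive, as were 61.1% of all folds, and 0 of 8 had non-overlapping groups, where 13.6% of genes had. The median fold of the members was 1.07 on the log2 scale, beside 0.03 over all genes. The widest fold was that of Ighd, 2.16 ± 1.42 (SE), from 1.89 ± 2.32 (SD, n = 3) in WT to 4.05 ± 1.95 (SD, n = 2) in KO. Cd79a had a fold of 1.30 ± 1.09, Ms4a1 one of 1.21 ± 0.95 and Fcmr one of 1.15 ± 0.97, all with a limma adjusted p of 0.99998. The folds of Pax5 (0.98 ± 0.86), Cr2 (0.97 ± 0.72), Cd79b (0.94 ± 0.98) and Fcer2a (0.93 ± 0.96) were of like size with the same adjusted p. In this fit, which takes no pairs, the difference between the groups was within the spread between libraries for every member.

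Single libraries decided the size and sign of this difference. Without KO 2 the median fold of the members was -0.089, and Cd79a, Cd79b, Fcer2a, Pax5 and Fcmr had negative folds. Without KO 3 the median was 2.35, without WT 2 it was 1.81 and without WT 1 it was 0.71. With WT 2 and KO 2 both left out, a setting chosen after the data were seen, it was 0.79 over the 7 members still kept. WT 2 and KO 2 bear the same number in their titles, and the labels do not say what the number stands for. All 8 genes were higher in KO 2 than in WT 2, by 0.51 to 0.93, as were 53.6% of all genes. All 8 were also higher in KO 3 than in WT 3, by 0.47 to 2.24 (59.5% of all genes), and higher in KO 3 than in WT 1, by 0.04 to 2.0 (58.9%). With KO 1 rescaled and added to the fit, the folds of the 4 members it covers were smaller, at 0.39 ± 0.76 (SE) for Cr2, 0.34 ± 0.96 for Cd79b, 0.97 ± 1.53 for Ighd and 0.47 ± 0.98 for Fcmr, against 0.97, 0.94, 2.16 and 1.15 without it. The other 4 members have no value in KO 1 and kept their folds, and the median over all 8 was 0.95. KO 1 stood apart in gut position and in the tissue markers given below, and their part in these smaller folds was not tested.

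**Figure D2:**
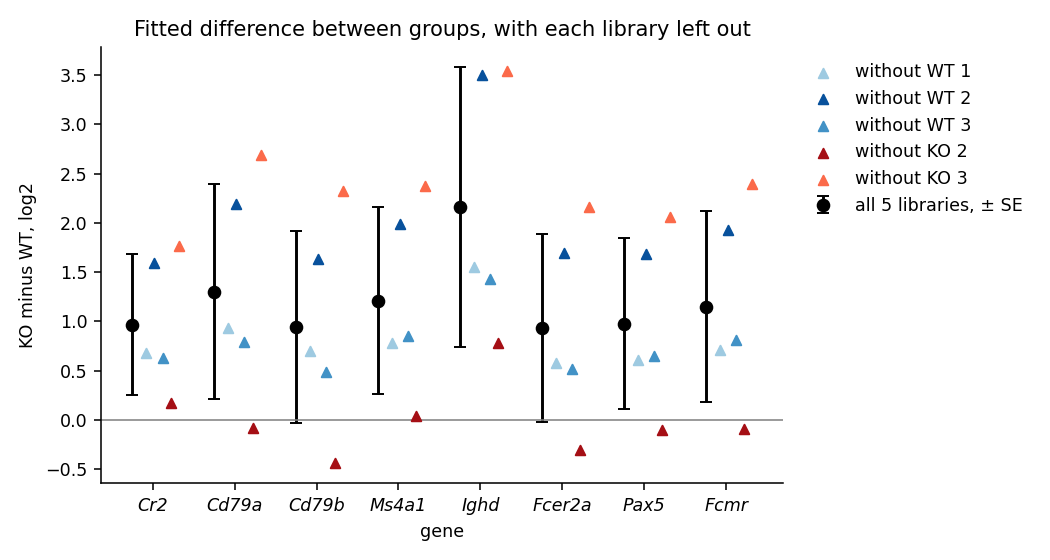
The plot gives, for each gene on the x axis, the fitted KO minus WT difference in log2 units over 5 libraries (black circles, bars ± SE) and the same difference with each library left out in turn (triangles). Leaving out KO 2 brings the differences to between -0.44 and 0.78, and leaving out KO 3 or WT 2 raises each of them.

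Genes closest to the members were ranked by the root mean square difference between a gene's centred log2 values and the centred mean of the members, over 5 libraries and 12850 genes with a mean of 1 or more. The median gene stood 1.30 away. The closest was H2-Ob, the beta chain of H2-O, which regulates peptide loading of MHC class II in B cells, at a difference of 0.09: it stood at 1.02, 3.34 and 0.70 in WT, with KO 2 at 4.14 and KO 3 at 1.81. Also among the 8 closest were Cd22 (0.12), an inhibitory co-receptor, Bank1 (0.13), a B cell adaptor protein, and Vpreb3 (0.21). Cd22 overlaps exons of Gm29439 on the opposite strand.

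Clu, Ccr6 and Glycam1 were among the 8 closest genes as well. Clu encodes clusterin, which follicular dendritic cells and other cells make, and stood at 2.11, 4.54 and 2.37 in WT, with KO 2 at 4.99 and KO 3 at 2.60 (difference 0.24). Ccr6 encodes a chemokine receptor that guides B cells towards the epithelium over follicles (0.28). Glycam1 encodes an L-selectin ligand of the high endothelial venules of lymph nodes, and stood at 0.09, 2.03 and 0.07 in WT, with KO 2 at 3.05 and KO 3 at 0.13 (0.30). Glycam1 was thus near 0 in KO 3, where the B cell genes were between the high and the low libraries.

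**Figure D3:**
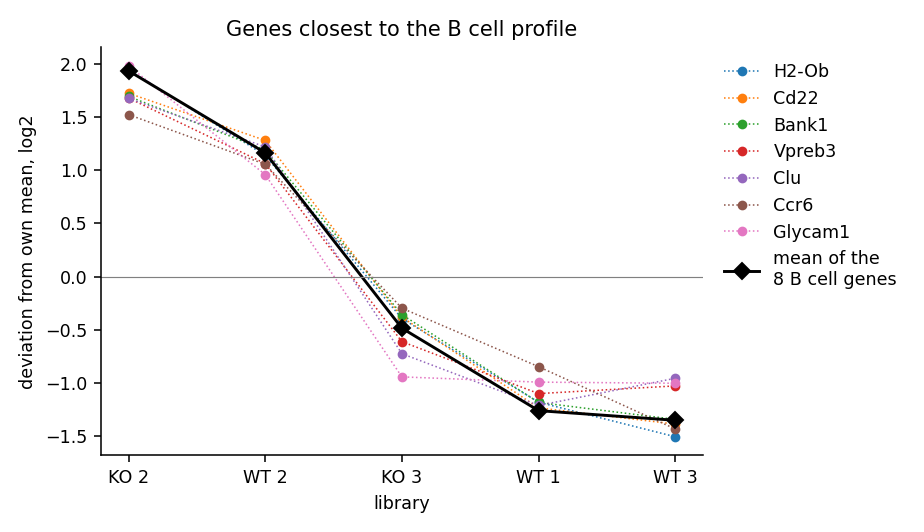
The plot shows the deviation from each gene's own 5-library mean, in log2 units, for 7 of the 8 closest genes (dotted) and for the mean of the 8 B cell genes (black), with libraries ordered by that mean and lines drawn only to guide the eye. Each gene is highest in KO 2 and next in WT 2, and Glycam1 is the lowest of the lines in KO 3.

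Other B cell genes were read from lists that were written with earlier results of these data known. Of 18 further genes of antigen receptor signalling, 16 had WT 2 and KO 2 as their highest libraries, against 17.7% of all genes, 17 had positive folds and 0 passed by limma (median fold 0.58). Cd37, a tetraspanin of leukocytes, had a fold of 0.98 ± 0.71 (SE), Ralgps2 one of 0.18 ± 0.13, and Cd72, a B cell co-receptor, the lowest, -0.02 ± 0.44. Cd37 and Cd72 each overlap exons of a gene on the opposite strand. Kinases and adaptors of the list differed in how far they spread over the 5 libraries: Btk, a kinase of the receptor pathway, ran from 0.76 to 2.09, Plcg2, the phospholipase it activates, from 2.70 to 3.47, and the kinase Syk from 3.54 to 4.16. The adaptors Blnk and Pik3ap1 ran from 3.61 to 3.99 and from 3.79 to 3.89.

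Of 10 B lineage transcription factors, 8 had WT 2 and KO 2 highest and all 10 had positive folds (median 0.38), with 0 passing. Ikzf3, the factor Aiolos, stood at 1.26, 2.95 and 1.0 in WT, with KO 2 at 3.35 and KO 3 at 1.69. Ebf1, a factor that acts with PAX5, spanned 1.81 to 2.89, and Tcf3, which encodes E2A and is expressed widely, spanned 4.21 to 4.54. Pou2af1, a coactivator of both B cells and plasma cells, was at 2.34 in WT 1, above KO 3 at 1.05, unlike the members.

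Receptors and ligands for follicle homing and survival showed the pair in 14 of 14 genes, all with positive folds (median 0.43) and 0 passing. Cxcr5, the receptor for CXCL13, stood at 0.53, 2.11 and 0.43 in WT, with KO 2 at 2.87 and KO 3 at 0.92. Its exons overlap those of Bcl9l on the opposite strand. Tnfrsf13c, the BAFF receptor that keeps naive B cells alive, stood at 0.25, 1.74 and 0.05 in WT, with KO 2 at 2.32 and KO 3 at 0.70. Ltb, which encodes the lymphotoxin beta needed to build follicles, had a fold of 0.84 ± 0.62 (SE), Ccr7, the T zone homing receptor, one of 0.61 ± 0.44, Ccr6 one of 1.02 ± 0.84, and Cd40, the receptor for T cell help, one of 0.13 ± 0.27.

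Stromal genes of follicles were highest in the same pair of libraries in 9 of 11 genes, with 9 positive folds, 0 passing and a median fold of 0.06. Cxcl13 stood at 1.20, 4.58 and 1.51 in WT, with KO 2 at 5.01 and KO 3 at 2.19, and Mfge8, made by follicular dendritic cells among others, at 3.99, 5.61 and 4.10 in WT, with KO 2 at 5.73 and KO 3 at 4.60. Both were thus highest where the B cell genes were highest, and in both KO 3 came next. Ccl19, a T zone chemokine, stood at 0.17, 2.21 and 0.18 in WT, with KO 2 at 2.20 and KO 3 at 0.26, close to the low pair. Ccl21a, which lymphatic vessels also make, stood at 2.96, 4.29 and 3.38 in WT, with KO 2 at 3.84 and KO 3 at 2.26, where it was lowest. Tnfsf11, the ligand RANKL, ran from 0.11 to 0.86. The lymphotoxin receptor Ltbr, made by many cells, ran from 5.37 to 5.49.

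Genes of germinal centres, where activated B cells divide and are selected, did not share the pattern. Of 9 genes kept of 10, 2 had WT 2 and KO 2 highest and 0 spanned 2 log2 units, which all 8 members did (0.826% of all genes). Mybl1 ran from 1.22 to 1.40 and S1pr2, a receptor that keeps cells in the germinal centre, from 1.35 to 1.71. Of 6 genes of B cell precursors, 3 were kept, and each of the 6 stayed at or below 0.18 in these 5 libraries. Genes of B-1 and marginal zone B cells had 4 of 8 with the pair highest, with Spn, which encodes CD43, at 0.96, 1.67 and 0.56 in WT, with KO 2 at 1.96 and KO 3 at 1.02. Cd5 had a fold of 0.50 ± 0.32 (SE) and Zbtb32 one of -0.19 ± 0.19.

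**Figure D4:**
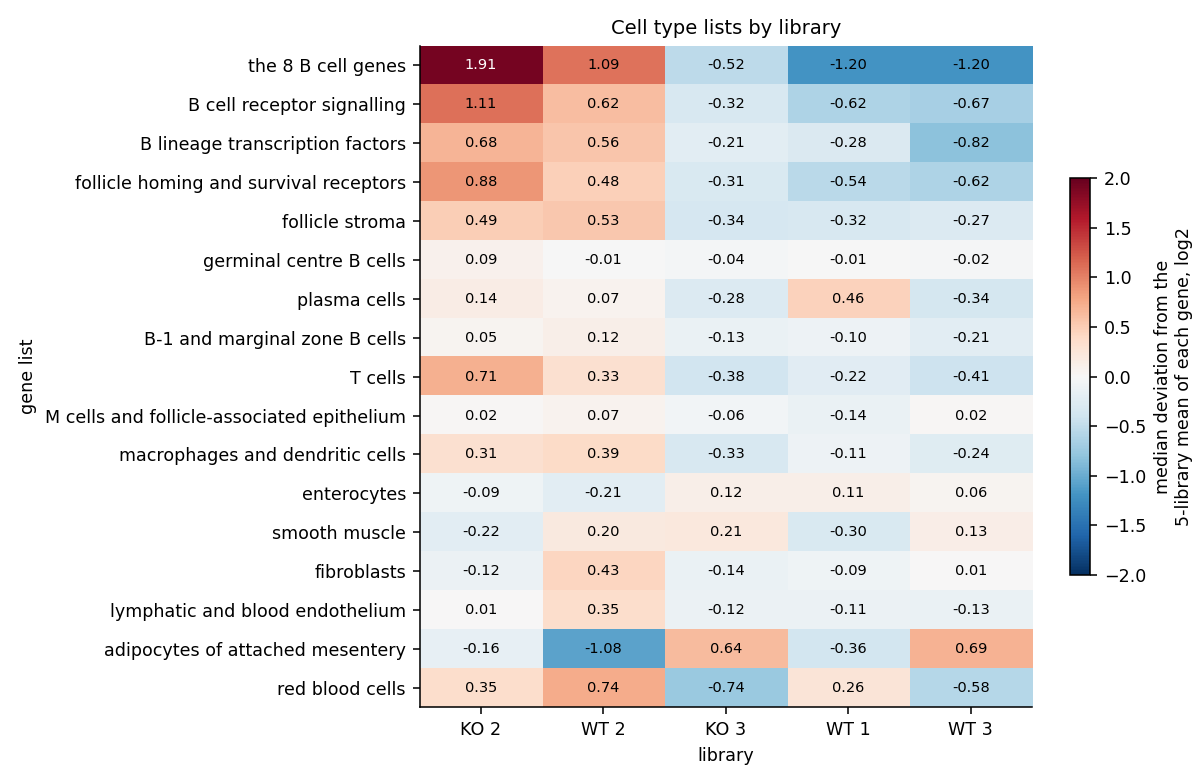
Each cell gives a list's median deviation, in log2 units, from the 5-library mean of its genes (rows are gene lists, columns are libraries ordered by the mean of the 8 B cell genes, red is higher). The 8 genes run from 1.91 in KO 2 to -1.20 in WT 1 and WT 3, while the germinal centre list stays between -0.04 and 0.09.

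In the list of 13 genes of antibody-secreting plasma cells, several had another order of libraries than the members. Igha, Igkc, Jchain, Mzb1, Derl3, Tnfrsf17 (at most 0.86) and Eaf2 (at most 0.89) were highest in WT 1 and lowest in KO 3. The other genes of the list did not have both. Igha, the IgA heavy chain, stood at 8.45, 6.85 and 5.41 in WT, with KO 2 at 6.68 and KO 3 at 3.30, with a fold of -1.92 ± 1.19 (SE). Jchain, which joins IgA into dimers, stood at 5.92, 4.33 and 3.02 in WT, with KO 2 at 4.43 and KO 3 at 1.29. WT 1, low in every naive B cell gene, was highest in both, and KO 3 was lowest. Ighm, which naive B cells and some plasma cells express, kept the order of the members, at 3.58, 5.72 and 2.79 in WT, with KO 2 at 6.35 and KO 3 at 3.66. The transcription factors Prdm1, Irf4 and Xbp1 did not follow Igha, whereas Igkc, Mzb1, Derl3 and Tnfrsf17 shared its highest and lowest libraries. Prdm1, which encodes BLIMP1, was highest in KO 3 (2.67) and lowest in KO 2 (1.97). Irf4 was highest in KO 2 (2.22) and lowest in WT 3 (0.80). Xbp1, which other secretory cells also use, ran from 6.89 in WT 2 to 7.12 in WT 3. Of the 13 genes of the list, 2 had WT 2 and KO 2 highest, 9 had negative folds and 0 passed by limma (median fold -0.20). Eaf2 had a fold of -0.31 ± 0.18.

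**Figure D5:**
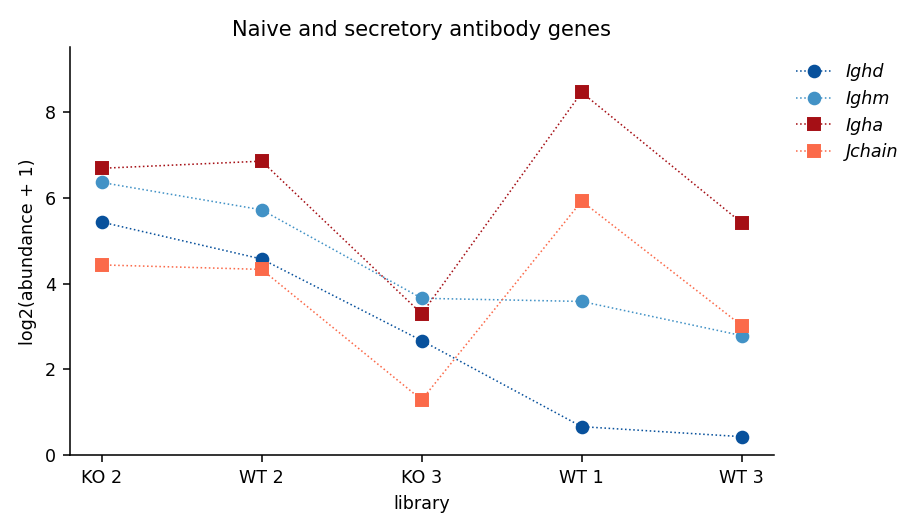
The plot gives log2(abundance + 1) of Ighd and Ighm (circles) and of Igha and Jchain (squares) in 5 libraries, ordered by the mean of the 8 B cell genes, with lines only to guide the eye. Ighd and Ighm go down from KO 2 to WT 3, while Igha and Jchain peak in WT 1, at 8.45 and 5.92, and are lowest in KO 3.

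Markers of other cells were set beside the B cell pattern. T cell genes had 15 of 17 with WT 2 and KO 2 highest (15 positive folds, 0 passing, median fold 0.28). Trac, the T cell receptor alpha constant gene, stood at 1.46, 2.96 and 1.70 in WT, with KO 2 at 3.53 and KO 3 at 2.02, Cd3d had a fold of 0.39 ± 0.19 (SE) and Thy1 one of -0.01 ± 0.23. The summed linear level of the T cell list ran from 18.7 to 48.2 in WT and from 20.2 to 69.3 in KO, and that of the 8 B cell genes from 2.85 to 62.6 in WT and from 13.5 to 116 in KO. Of 12 macrophage and dendritic cell genes, 10 had the pair highest (summed level 99.4 to 168 in WT, 87.2 to 164 in KO), with Itgax, or CD11c, at 2.19, 2.83 and 2.02 in WT, with KO 2 at 2.90 and KO 3 at 2.11. Of the M cell list, 9 of 10 genes were kept and 4 had the pair highest. Gp2, a defining M cell marker, was listed at 0 in WT 1, WT 3 and KO 3, at 0.09 in WT 2 and at 0.32 in KO 2.

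Tissue outside the follicles also differed between libraries. Enterocyte markers had 0 of 8 genes with the pair highest, and their median deviation was lowest in WT 2 (-0.21) and KO 2 (-0.09); their summed level was 1534 to 1880 in WT and 1657 to 1958 in KO. Adipocyte genes, a sign of attached mesentery, were lowest in WT 2 (median deviation -1.08) and highest in WT 3 (0.69) and KO 3 (0.64), with Plin1 at 1.59, 0.78 and 2.68 in WT, with KO 2 at 2.04 and KO 3 at 2.87. Their summed level was 15.8 to 55.0 in WT and 26.1 to 51.5 in KO. Red blood cell genes were highest in WT 2 (0.74) and KO 2 (0.35) and lowest in KO 3 (-0.74), with 4 of 5 genes having the pair highest and a summed level of 288 to 775 in WT and 265 to 581 in KO. Fibroblast genes had 2 of 7 with the pair highest and stood out in WT 2 alone (0.43), and smooth muscle genes had 0 of 6. Of 6 genes of lymphatic and blood endothelium, 4 had the pair highest, with a median deviation of 0.35 in WT 2 and 0.0062 in KO 2 and a summed level of 36.5 to 57.1 in WT and 40.0 to 46.0 in KO. For rescaled KO 1, median deviations from the 5-library means were taken over the genes it covers. They were -4.34 for smooth muscle (2 genes), -2.73 for adipocytes (2), -1.98 for fibroblasts (5), -0.63 for endothelium (4) and -0.61 for red blood cells (2). Enterocyte genes went the other way, at 0.65 (5 genes). The part of these tissues in the B cell pattern was not tested.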

How the data were processed

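The authors deposited 1 table of log2 values (base, constant and abundance unit not given in the sources used here; they were read as log2(abundance + 1)) for 6 libraries. Per the labels' protocols, RNA was polyadenylated and libraries came from a stranded low-input kit; the build is mm10, per the submitters' processing notes. The aligner and the counter were not given in the sources used here. Of 32245 rows, 26 with a date for a symbol were left out. GENCODE vM21 placed 31398 of 32219 genes. Genes above 0 in at least 3 of 5 libraries were kept, and the groups were compared by limma 3.58.1 (R 4.3.3) with a variance trend, 2-sided, adjusted p threshold 0.05, checked on simulated data. KO 1 was divided by 2.12, its median ratio over 2160 covered genes at 4 or more. Depth is unknown, so no counting interval is given.

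The members and lists were chosen with earlier results of these data known. The rule allowed the members, per list the highest and lowest fold and the 2 smallest p, the 8 closest genes, Ptprc, Gata4, Fabp6 and Slc10a2. Named outside it, after their values were seen, were Btk, Plcg2, Syk, Blnk, Pik3ap1, Prdm1, Irf4, Xbp1, Pou2af1, Cxcr5, Tnfrsf13c, Ccl19, Ltbr, Jchain, Gp2 and Gm49380. So were Igkc, Mzb1, Derl3 and Tnfrsf17. Single genes that the rule allowed but the text does not name are not reported here. Alternatives covered libraries, the replicate number, scaling, filter, constant, variance model and log base.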

Additional observations from a re-analysis of the deposited data

How the results depend on the processing

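Over 18 alternatives, 138 of 143 member folds kept their sign and none passed by limma. Without KO 2, 5 turned. Over left-out libraries, from KO 2 to KO 3, the fold ran from -0.086 to 2.69 for Cd79a, from -0.44 to 2.32 for Cd79b, from -0.30 to 2.16 for Fcer2a, from -0.10 to 2.06 for Pax5 and from -0.092 to 2.40 for Fcmr. The median fold of 1.07 ran from -0.089 to 2.35. It was 0.45 with all 6 libraries as deposited, a setting that enters the missing values of KO 1 as 0. With KO 1 rescaled and those values left out, it was 0.95. It was 1.98 with an added constant of 0.1, 0.54 with 5 and 1.54 with natural logs. The list medians for receptor signalling, transcription factors and homing were negative without KO 2 only. The follicle stroma median was negative also with 6 libraries as deposited (-0.65), but was 0.048 with KO 1 rescaled and its missing values left out. The T cell median was negative without KO 2, without both libraries numbered 2 and with 6 libraries as deposited (-0.10). With KO 1 rescaled and its missing values left out, the T cell median was 0.27. The plasma cell median was 0.0081 without KO 3.

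The 1 gene called, Gm49380, is no member. The count was 0 with all 6 libraries as deposited, the replicate block, the filter at a mean of 1, a constant of 0.1, and without both libraries numbered 2, was 0 over each left-out library, and was 4 with no filter. The range of 3.28 in the members' mean level was 4.86 with a constant of 0.1, 1.70 with 5, 4.73 with natural logs and 0.86 without both libraries numbered 2, and 2.51 to 3.28 over left-out libraries. The constant and the log base set the scale itself; the cause of the other changes was not tested.

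With the replicate block, the median member fold was 0.71 and Ighd had the smallest adjusted p of the members by limma, 0.953 (fold 1.55 ± 0.32, SE). With KO 1 left out, WT 1 was alone under its number, so the member folds equal those of the fit without WT 1. The SE of every member was smaller than in the main fit, with folds of 0.93 ± 0.22 for Cd79a and 0.58 ± 0.21 for Fcer2a. These SEs rest on the libraries numbered 2 and 3 only. Deviations of same-numbered libraries correlated at 0.257, 0.532 and 0.0608 for numbers 1, 2 and 3 with rescaled KO 1 included (6516 genes), and at 0.303 and 0.346 for numbers 2 and 3 over 14311 genes without KO 1. Number 3 was under 0.1 only in the set that includes KO 1, which stood apart from the other libraries. Without KO 1, the deviations of KO 2 and KO 3 from their mean are exact opposites, so 0.303 and 0.346 are not separate observations. These correlations therefore cannot decide whether the numbers mark pairs. The labels do not say so, and the main fit took no pairs. Unknown depth limits what values near 0 can show.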
